A study of Rattus norvegicus with 20 samples.

Results

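Brain tissue next to a ventricle can come away with the choroid plexus when it is dissected, and 6 genes that mark such tissue were followed here through the choroid plexus RNA of 20 rats. Penk, Ppp1r1b, Bcl11b and Ano3 mark projection neurons of the striatum, 1 of the regions that border the lateral ventricle, and Gja1 and Glul mark astrocytes. In the files they are Penk (ENSRNOG00000008943), Ppp1r1b (ENSRNOG00000028404), Bcl11b (ENSRNOG00000005776), Ano3 (ENSRNOG00000004731), Gja1 (ENSRNOG00000000805) and Glul (ENSRNOG00000049560). They are 6 of the 32883 genes in the deposited files, taken by name with earlier results of these data known. Penk, Bcl11b, Ano3 and Gja1 are on the study's own list of changed genes from part of these libraries. The choice was therefore not independent of the values. Their values are abundances in TPM, which divide out the length of the transcript and the depth of the library, with 1 value per gene and rat.

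The rats were female Zucker rats of 16 weeks of age, a strain in which a recessive mutation of the leptin receptor gene, fa, makes homozygous animals obese. In the untreated cohort, 6 lean rats (+/fa, heterozygous, so they carry the mutation as well) stood beside 6 obese rats (fa/fa). In the injected cohort, 4 lean control rats received sesame oil (VEH) and 4 obese + TT rats received testosterone propionate in sesame oil. The question behind both comparisons was whether obesity, alone or with testosterone, alters the tissue that secretes the cerebrospinal fluid. The groups obese + TT and lean control differ in both genotype and testosterone, whose parts cannot be told apart, and the cohorts differ in the injections and in whatever else set them apart.

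Choroid plexus of the lateral and the 4th ventricle was sequenced in bulk, so fewer cells of a type and less RNA per cell cannot be told apart. Between 14968 and 16860 genes were above 0 TPM per library, and Ttr (transthyretin), the leading product of the epithelium, took 25.8 to 39.3% of all TPM. How many reads lie behind a value is unknown, values are listed to 2 decimals, and a 0 may be a failed estimate. Lean control rat 14 had the fewest genes above 0, and the differences of Penk and Gja1 that it moves are given with and without it.

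Striatal projection neurons are inhibitory neurons that receive dopamine. Penk encodes the precursor of the enkephalin peptides, made by the projection neurons of the indirect pathway. Ppp1r1b encodes DARPP-32, an inhibitor of protein phosphatase 1 that is regulated through cyclic AMP and is known from the choroid plexus epithelium as well as from the striatum. Bcl11b encodes CTIP2, a transcription factor needed for these neurons to mature, and Ano3 encodes anoctamin 3, a membrane protein enriched in the striatum. Gja1 encodes connexin 43, which forms the gap junctions of astrocytes but also of fibroblasts and smooth muscle, and Glul encodes glutamine synthetase, which turns glutamate into glutamine in astrocytes and in many other tissues.

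The DNA before the start of Gja1 and of Ano3 is shown because the levels of these genes separated groups in several comparisons. Each window holds the 250 bases before an annotated start, 5′ to 3′ on the gene's strand, from RefSeq on the build GRCr8, which is not the build of the deposited files (Rnor_6.0). Of the 6 genes, 3 were matched (Ano3, Gja1 and Glul), with 5 windows in all. Penk, Ppp1r1b and Bcl11b had no entry. The window of Gja1 is chr20:36302314-36302563 on the plus strand, and those of Ano3 are chr3:118004696-118004945 and chr3:117885148-117885397 on the minus strand. Capitals mark the AP-1 motif (TGAGTCA) in Gja1, the E-box (CACGTG) in the first window of Ano3 and the androgen response half-site (AGAACA) in the second.
Gja1: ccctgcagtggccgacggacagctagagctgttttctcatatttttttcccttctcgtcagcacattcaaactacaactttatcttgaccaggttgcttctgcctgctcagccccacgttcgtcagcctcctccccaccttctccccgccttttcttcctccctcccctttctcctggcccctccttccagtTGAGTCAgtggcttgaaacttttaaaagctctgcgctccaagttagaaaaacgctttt
Ano3, first start: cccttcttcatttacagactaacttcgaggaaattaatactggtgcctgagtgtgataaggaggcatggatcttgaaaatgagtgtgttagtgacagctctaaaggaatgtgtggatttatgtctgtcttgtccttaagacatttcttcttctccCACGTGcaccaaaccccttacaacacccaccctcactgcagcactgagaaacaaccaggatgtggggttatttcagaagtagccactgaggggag
Ano3, second start: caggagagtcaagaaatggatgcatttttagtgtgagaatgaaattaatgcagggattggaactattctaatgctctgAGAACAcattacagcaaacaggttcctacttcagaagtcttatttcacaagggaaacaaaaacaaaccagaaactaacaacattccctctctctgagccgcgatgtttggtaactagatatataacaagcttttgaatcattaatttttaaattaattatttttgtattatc

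The motifs were searched on both strands as exact letters. TGAGTCA lay 58 to 52 bases before the start of Gja1 and is found in 4.05% of the 33469 windows of this length in the table. CACGTG lay 95 to 90 bases before the first start of Ano3 and is in 5.59% of windows. AGAACA lay 172 to 167 bases before the second start of Ano3 and is in 17.5% of windows. The full androgen response element (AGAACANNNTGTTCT, which contains the half-site) was in 4 windows of the table, or 0.012%, and in none of the 5. The TATA box (TATAAA, in 12.9% of windows) and the cyclic AMP response element (TGACGTCA, in 1.59%) were in none of the 5 either, and both windows of Glul held no motif that was searched. A match describes the letters of the window and is no evidence of binding.

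The 6 markers did not share 1 level. Ppp1r1b had a mean of 502.7 TPM over the 20 libraries and ranked 188 among the 19348 genes above 0 in any library. Glul followed with 130.2 TPM (rank 707) and Gja1 with 4.79 TPM (rank 8886). Penk, at 0.872 TPM, ranked 12302, Ano3, at 0.0805 TPM, ranked 15681, and Bcl11b, at 0.065 TPM, ranked 15975. Ppp1r1b and Glul were thus among the well-expressed genes of this tissue, and Bcl11b and Ano3 were close to the lowest values in the files. Gja1 and Penk lay in between. TPM is per length, and by that scale the mean level of Ppp1r1b was 960.2 times that of Penk in the lean rats and 258.0 times in the obese + TT rats.

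Penk varied widely among rats of 1 group. It was between 0.15 and 1.11 TPM in the lean rats (median 0.525, n = 6) and between 0.35 and 1.59 TPM in the obese rats (median 0.765, n = 6). The lean control rats were at 0.66, 0, 0.70 and 0.25 TPM, in the order of rats 13 to 16. The obese + TT rats were at 2.74, 2.81, 0.70 and 0.77 TPM, in the order of rats 17 to 20. Rats 17 and 18 were thus above all 18 other libraries, rats 19 and 20 lay among the untreated rats, and the coefficient of variation within groups was 60.1 to 83.6%. From the highest to the lowest mean the order was obese + TT, obese, lean and lean control, and each pair of neighbours in that order overlapped.

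Ppp1r1b was far more even, with coefficients of variation from 7.96 to 14.5%. The lean rats lay between 532.38 and 645.51 TPM (median 571.7, n = 6) and the obese rats between 402.41 and 586.99 TPM (median 518.8, n = 6). The lean control rats were at 383.84, 435.43, 403.84 and 472.19 TPM. Rats 17 to 20, with TT, were at 449.57, 481.43, 483.35 and 396.85 TPM. Every lean control rat was below every lean rat, while neighbours in the order lean, obese, obese + TT and lean control overlapped.

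Bcl11b was listed at 0 in 3 of the 20 libraries. It was between 0 and 0.05 TPM in the lean rats (median 0.02, n = 6) and between 0.01 and 0.08 TPM in the obese rats (median 0.04, n = 6). The lean control rats were at 0.10, 0.02, 0.04 and 0 TPM. The obese + TT rats, at 0.27, 0.13, 0.22 and 0.17 TPM, were above all other libraries.

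Ano3 had a value above 0 in every library. The lean rats were between 0.02 and 0.04 TPM (median 0.03, n = 6) and the obese rats between 0.03 and 0.07 TPM (median 0.05, n = 6). The lean control rats were at 0.10, 0.06, 0.06 and 0.06 TPM, above every lean rat but overlapping with the obese rats. The obese + TT rats, at 0.29, 0.22, 0.14 and 0.19 TPM, were again above all other libraries.

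Among the astrocyte markers, Gja1 divided the cohorts. It was between 5.21 and 7.39 TPM in the lean rats (median 6.34, n = 6) and between 4.79 and 9.12 TPM in the obese rats (median 5.74, n = 6). The lean control rats were at 2.32, 1.21, 1.62 and 2.47 TPM. Those with TT were at 3.39, 2.94, 3.17 and 3.26 TPM, so that every injected rat was below every untreated rat, and within the injected cohort every lean control rat was below every obese + TT rat.

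Glul was at a similar level in all groups. It was between 121.44 and 142.42 TPM in the lean rats (median 127.7, n = 6) and between 109.72 and 146.07 TPM in the obese rats (median 125.7, n = 6). The lean control rats were at 119.89, 119.75, 128.73 and 127.78 TPM. The obese + TT rats were at 137.97, 145.53, 143.31 and 133.50 TPM, which was above the lean control rats and overlapped with both untreated groups.

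**Figure D1:**
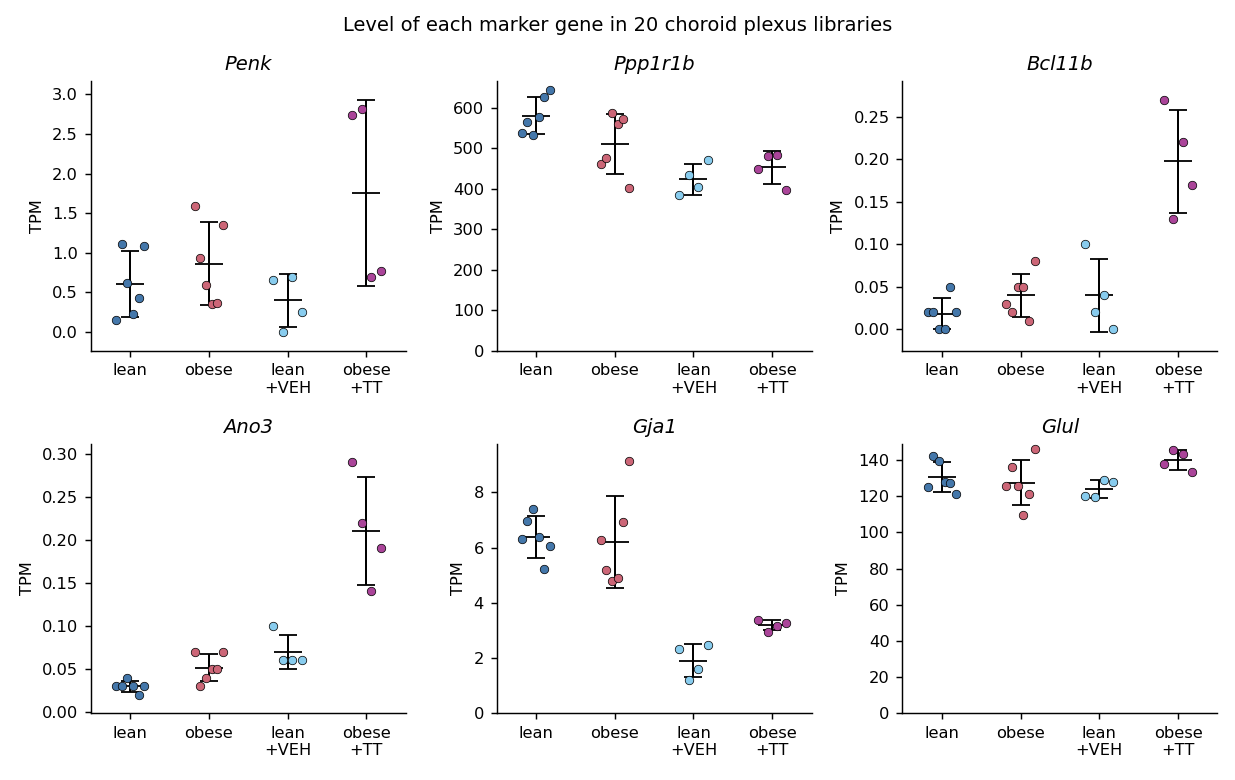
TPM of the 6 marker genes (linear axes, each with its own scale) in the 6 lean, 6 obese, 4 lean control (lean +VEH) and 4 obese + TT rats. Each point is 1 rat, and the horizontal lines and bars are the mean ± SD of the group. Bcl11b and Ano3 were highest in the 4 obese + TT rats, Penk in 2 of them, and Gja1 was lower in all 8 injected rats than in the 12 untreated rats.

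In the untreated cohort, no marker separated obese from lean rats. Penk was at 0.605 ± 0.417 TPM in the lean and 0.865 ± 0.52 TPM in the obese rats (SD, n = 6 of each), a difference of 0.51 on the log2(TPM + 0.1) scale (standard error 0.45). Its adjusted p was 0.769, from limma with Benjamini-Hochberg adjustment over all genes tested. Since 0.1 is added to each TPM, this scale understates the fold change of genes with a low level.

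Ppp1r1b was at 580.9 ± 46.2 TPM in the lean and 510.4 ± 73.9 TPM in the obese rats (SD, n = 6 of each), a log2 difference of -0.20 (standard error 0.09) with an adjusted p of 0.514 in limma. Permuting the 12 rats gave an exact two-sided p of 0.0758, and 2 of the 6 obese rats were above the lean median. Gja1 differed by -0.07 (standard error 0.15, adjusted p = 0.924) and Glul by -0.04 (standard error 0.07, adjusted p = 0.909) on the log2 scale in limma. Both were within the spread between rats.

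Bcl11b and Ano3 had a mean under the 0.1 TPM required for a test over all genes in the untreated rats. Their log2 differences were 0.24 and 0.22. For Ano3, 4 of the 6 obese rats were above every lean rat (exact permutation p = 0.0238, two-sided), at means of 0.0517 and 0.03 TPM that differ by few of the file's steps of 0.01. With no filter on low values its adjusted p was 0.631 and that of Bcl11b was 0.721 in limma. For Bcl11b the exact permutation p was 0.145.

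Of the 4 markers tested in the untreated cohort, 0 passed an adjusted p of 0.05 in limma, where 0% of the 15176 genes tested did, and 1 of the 4 (Ppp1r1b) had an unadjusted p under 0.05, where 9.66% of all genes did. In none of the 6 were the groups free of overlap, which held for 0.54% of the genes tested.

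In the injected cohort, all 6 markers had a higher mean log2 level in the obese + TT than in the lean control rats, and none passed the adjusted threshold. Penk, Bcl11b, Ano3 and Gja1 are on the list of changed genes that the study drew from these same 8 libraries, so their values here are a description and no independent evidence of a direction. Penk averaged 1.76 ± 1.18 TPM with obesity and testosterone and 0.402 ± 0.337 TPM in the lean control rats (SD, n = 4 of each). Its log2 difference was 2.02 (standard error 0.71, adjusted p = 0.594 in limma). Without lean control rat 14, where Penk is listed at 0, it was 1.38 (adjusted p = 0.908 in limma, the highest of 17 alternatives, which began at 0.347). With 1 in place of 0.1 added to each TPM, it was 0.90.

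For Bcl11b the means were 0.198 ± 0.0608 and 0.04 ± 0.0432 TPM, and for Ano3 0.21 ± 0.0627 and 0.07 ± 0.02 TPM, in the obese + TT and lean control rats (SD, n = 4 of each). The log2 difference was 1.11 for Bcl11b (standard error 0.42, adjusted p = 0.609) and 0.85 for Ano3 (standard error 0.37, adjusted p = 0.668) in limma. Both genes entered the test only through the obese + TT rats, where they were high. Without lean control rat 14 the differences were 1.05 and 0.82, and with 1 added to each TPM they shrank to 0.20 and 0.18.

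Gja1 was at 3.19 ± 0.19 TPM in the obese + TT rats and 1.91 ± 0.593 TPM in the lean control rats (SD, n = 4 of each), a log2 difference of 0.76 (standard error 0.22, adjusted p = 0.519 in limma). Without rat 14, which had the lowest Gja1 of all libraries, it was 0.58.

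The other 2 markers were not on the study's list. Glul was 12.9% higher in the obese + TT rats, at 140.1 ± 5.41 against 124.0 ± 4.89 TPM (SD, n = 4 of each). No lean control rat reached the lowest of the obese + TT rats (exact permutation p = 0.0286, two-sided and the smallest that 4 rats against 4 allow), with an adjusted p of 0.543 in limma. For Ppp1r1b the log2 difference was 0.10 (standard error 0.09, adjusted p = 0.833 in limma), the groups overlapped and the exact permutation p was 0.286.

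The 2 groups did not overlap for 4 of the 6 markers (Bcl11b, Ano3, Gja1 and Glul), all higher in obese + TT rats. Over all 15259 genes tested, 4.02% did not overlap, 2.37% in this direction. Bcl11b, Ano3 and Gja1 were on the study's list from these same libraries, and Bcl11b and Ano3 were tested only through the obese + TT rats. Nothing is therefore read from the count of markers without overlap. An adjusted p under 0.05 in limma was reached by 0 of the 6 markers and by 0% of all genes. The study called genes both here and between obese and lean rats, with DESeq2 on counts. The absence of calls is thus one of limma on TPM and no sign that nothing changed. An unadjusted p under 0.05 was reached by 5 of the 6 markers and by 7.43% of all genes, a count to which the study's own choice of 4 of them contributes.

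**Figure D2:**
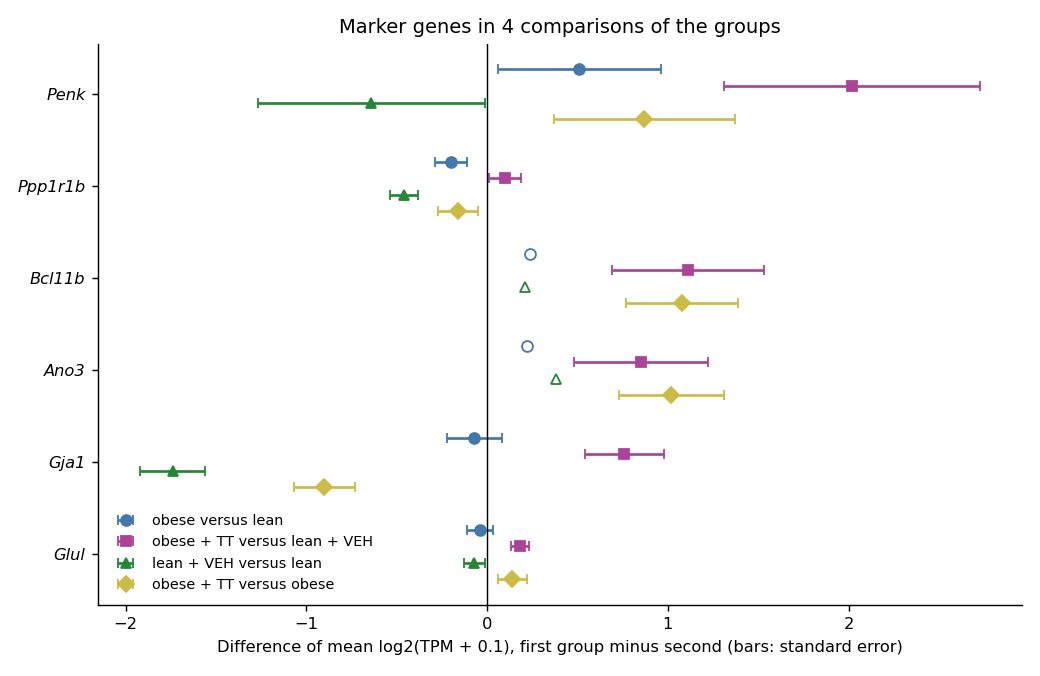
Difference of the mean log2(TPM + 0.1) between groups (x axis) for each marker gene, in 4 comparisons. Filled symbols carry the standard error from limma, and open symbols are genes with a mean under 0.1 TPM, which were not tested. In the comparison of obese + TT with lean control rats every symbol is to the right of 0, from 0.10 for Ppp1r1b to 2.02 for Penk, and Gja1 is to the left of 0 in both comparisons between cohorts.

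The difference between the cohorts' contrasts was itself tested, in 1 fit of all 20 libraries. It was 1.51 on the log2 scale for Penk (standard error 0.86, adjusted p = 0.666), 0.29 for Ppp1r1b (0.14, adjusted p = 0.596), 0.84 for Gja1 (0.26, adjusted p = 0.389) and 0.21 for Glul (0.09, adjusted p = 0.561) in limma. Bcl11b and Ano3 had a mean under 0.1 TPM over the 20 libraries, and with no filter their differences of 0.88 and 0.63 had adjusted p-values of 0.427 and 0.42 in limma. None of the 6 passed, as 0% of the 15406 genes tested did. An unadjusted p under 0.05 in limma was reached by 8.36% of these genes. Of the 4 markers tested, 3 reached it (Ppp1r1b, Gja1 and Glul). This contrast contains the comparison from which the study drew its list with Penk, Bcl11b, Ano3 and Gja1. The values of those genes are therefore a description, and nothing is read from the count. Without lean control rat 14 the value was 0.87 for Penk and 0.65 for Gja1, and with 1 added to each TPM it was 0.69 for Penk. A difference between the contrasts of the cohorts was not shown for any marker.

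Comparing the cohorts within a genotype joins the injections, and for the obese rats testosterone, with the cohort. Such comparisons moved most of the transcriptome: 58.2% of 15326 genes had an adjusted p under 0.05 between lean control and lean rats and 58.1% of 15389 genes between obese + TT and obese rats, both in limma. The median log2 difference of all genes was 0.24 and 0.25. Scaling each library by its median ratio moved these medians to -0.05 and -0.04, and the share of higher genes among those called from 71.6 to 46.0% and from 71.8 to 46.6%.

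Against that background Gja1 fell in both genotypes. In the lean rats it went from 6.39 ± 0.752 TPM (SD, n = 6) to 1.91 ± 0.593 TPM (SD, n = 4) in the lean control rats, a log2 difference of -1.74 (standard error 0.18, adjusted p = 5.94e-06 in limma), or -1.55 without rat 14. In the obese rats it went from 6.2 ± 1.66 TPM (SD, n = 6) to 3.19 ± 0.19 TPM (SD, n = 4), a log2 difference of -0.90 (standard error 0.17, adjusted p = 0.000723 in limma). Relative to the median of all genes, the differences were -1.98 and -1.15, and they kept their sign and side of the threshold in all 19 alternatives of each comparison. The injected libraries also entered the study's list, which holds Gja1. Both falls are therefore a description and no independent evidence.

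Ppp1r1b fell from lean to lean control rats by 0.46 on the log2 scale (standard error 0.08, adjusted p = 0.00027 in limma), and every lean control rat was below every lean rat. Between obese and obese + TT rats its difference was -0.16 (standard error 0.11, adjusted p = 0.214 in limma), which became -0.46 with median-ratio scaling (adjusted p = 0.00705 in limma, over a range of 0.00705 to 0.476 among 19 alternatives).

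Bcl11b and Ano3 rose from obese to obese + TT rats. Bcl11b went from 0.04 ± 0.0253 (SD, n = 6) to 0.198 ± 0.0608 TPM (SD, n = 4), a log2 difference of 1.08 (standard error 0.31). Ano3 went from 0.0517 ± 0.016 (SD, n = 6) to 0.21 ± 0.0627 TPM (SD, n = 4), a log2 difference of 1.02 (standard error 0.29). Both were called in limma, but they passed the filter on low values only through the obese + TT rats. Those 4 libraries also entered the study's list, so the rise is a description and no independent evidence. The adjusted p-values of both are therefore not given. Without obese + TT rat 17 both fell under the filter, and 1 of the 6 markers, Gja1, was then called. Bcl11b also fell under it, and so went untested, without rat 19, without rat 20 and with median-ratio scaling. With 1 added to each TPM both differences were 0.20.

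Between lean and lean control rats Bcl11b and Ano3 were under the filter. Their log2 differences were 0.21 and 0.38, and for Ano3 no lean rat reached the lowest lean control rat (exact permutation p = 0.00952, two-sided and the smallest that 4 rats against 6 allow). With no filter Ano3 had an adjusted p of 0.0379 in limma, and it was 0.14 above the median of all genes.

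Penk and Glul showed no difference between cohorts that held up. Penk differed by -0.64 (standard error 0.63, adjusted p = 0.401) between lean control and lean rats, which was 0 without rat 14, and by 0.87 (standard error 0.50, adjusted p = 0.153) between obese + TT and obese rats in limma. Glul differed by -0.07 (adjusted p = 0.32) and 0.14 (adjusted p = 0.125) on the log2 scale in limma. With median-ratio scaling those values became -0.38 (adjusted p = 7.13e-05 in limma, the lowest of 19 alternatives, up to 0.528) and -0.15, so the direction in the obese rats depends on the scale.

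Between lean control and lean rats, 2 of the 4 markers tested were called (both lower, where 16.5% of all genes were called lower), and 3 of the 6 did not overlap, where 44.8% of all genes did not. Of those 3, 1 was higher (Ano3), as 34% of all genes were without overlap, and 2 were lower (Ppp1r1b and Gja1), as 10.7% of all genes were. Between obese + TT and obese rats, 3 of the 6 were called, where 58.1% of all genes were. Of these, 2 were higher (Bcl11b and Ano3, where 41.7% of all genes were called higher) and 1 was lower (Gja1, where 16.4% were called lower), and since the 2 higher ones were tested only because of their level in the obese + TT rats, nothing is read from their count. The same 3 did not overlap, where 45.8% of all genes did not, 34.1% being higher and 11.7% lower. The injected libraries entered the study's list with Bcl11b, Ano3 and Gja1. Nothing is therefore read from the counts of either comparison between cohorts.

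Few other markers of brain tissue could be named, because the symbols come from the study's own gene tables, which here name 2616 of the 32883 identifiers. Of 17 further genes of striatal projection neurons 1 had an identifier (Gng7), of 19 general neuronal genes 1 (Map2), of 7 ependymal genes 1 (Dynlrb2), and of 8 astrocyte, 9 oligodendrocyte and 6 microglia genes none. Levels of Drd1, Drd2, Gfap, Mbp and the like were therefore not analysed here.

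The study's list from the injected cohort holds 5 more genes known from neurons: Hpca (hippocalcin, a calcium sensor), Gng7 (a G protein subunit of striatal neurons), Rasgrp1 (an activator of Ras), Synpr (synaptoporin, of synaptic vesicles) and Egr4 (an activity-dependent transcription factor). Their summed level was 0.17 to 1.44 TPM in the lean, 0.56 to 1.61 TPM in the obese, 0.89 to 1.91 TPM in the lean control and 2.1 to 6.11 TPM in the obese + TT rats. The obese + TT rats were above all other libraries, though the list was drawn on them. Gng7, Synpr and Egr4 were listed at 0 in 1, 7 and 11 of the 20 libraries.

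Hpca was highest of the 5. It was at 1.47, 0.95, 0.63 and 0.47 TPM in the lean control rats and at 3.36, 2.68, 2.74 and 1.5 TPM in the obese + TT rats, with no overlap. Gng7 was at 0.05, 0.17, 0.24 and 0.07 TPM in the lean control rats and at 0.97, 1.32, 0.25 and 0.22 TPM in the obese + TT rats. As with Penk, rats 17 and 18 were the high ones for Gng7, while for Synpr (1.03, 0.34, 0.49 and 0.13 TPM) and Rasgrp1 (0.58, 0.19, 0.25 and 0.25 TPM) rat 17 alone stood apart.

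Between obese + TT and lean control rats 0 of the 4 genes tested among these 5 passed in limma (smallest adjusted p = 0.385, for Hpca). The list was drawn from this same comparison, so that result is a description and no independent evidence. Against the obese rats the log2 difference was 2.07 for Hpca, 1.82 for Gng7 and 1.58 for Synpr, given as a description with no test because the list was drawn on the obese + TT libraries. Gng7, at a mean of 0.0917 TPM in the obese rats, reached the filter only through the obese + TT rats. From lean to lean control rats 0 of 3 passed, where 58.2% of all genes did. From lean to obese rats it was 0 of 2, where 0% of all genes passed.

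**Figure D3:**
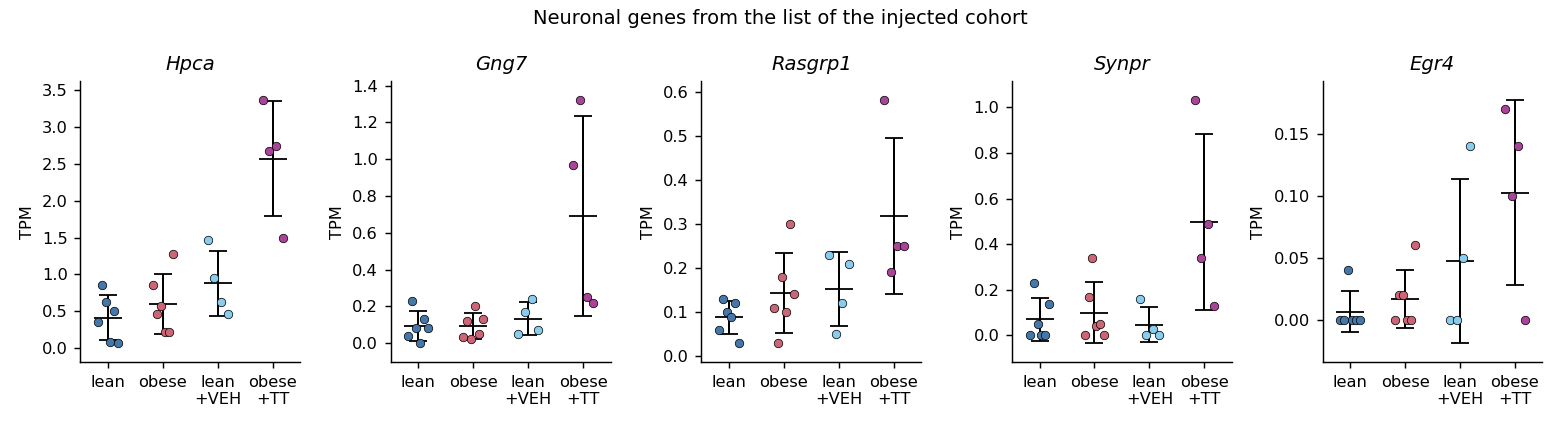
TPM of 5 further neuronal genes (linear axes) in the 4 groups, 1 point per rat, with the mean ± SD. The genes were taken from the study's list for the injected cohort, so that high values in the obese + TT rats were part of how they were chosen. For Hpca all 4 obese + TT rats are above all other rats, and for Gng7 rats 17 and 18 are, at 0.97 and 1.32 TPM.

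Map2, a neuronal microtubule protein that other cells make as well, did not follow this pattern. It was at 30.2 ± 3.93 TPM in lean, 27.8 ± 8.71 TPM in the obese group (SD, n = 6 of each), and at 81.7 ± 4.95 TPM in the lean control and 74.4 ± 2.37 TPM in the testosterone group (SD, n = 4 of each). It rose between cohorts by 1.44 (adjusted p = 2.07e-07) and 1.47 (adjusted p = 5.15e-05) on the log2 scale in limma, while between obese + TT and lean control rats its difference was -0.13 (adjusted p = 0.668). Dynlrb2, of ciliated cells, differed by 0.06 in that comparison (adjusted p = 0.9 in limma).

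Genes of other cell types of the choroid plexus also differed between the cohorts. The summed level of 6 of 9 stromal fibroblast genes was 793.8 to 1306.1 TPM in untreated and 332.1 to 410.8 TPM in injected rats, and none of the 6 was at 0 in any library. Of these, 4 were called lower and 2 (Ogn and Pdgfra) higher in limma on the TPM scale in each comparison between cohorts. Of all genes, 16.5% (lean) and 16.4% (obese) were called lower, and 41.7% higher in each. The median log2 difference of the 6 was -3.09 in lean and -3.16 in obese rats. The summed level of 4 of 8 vessel genes was 187.2 to 301.1 TPM in untreated and 13.2 to 32.3 TPM in injected rats, and none was at 0. Of these, 3 were called lower between lean and lean control rats, beside 16.5% of all genes (median -3.68). Between obese and obese + TT rats 4 were called lower, beside 16.4% of all genes (median -4.01). The vessel and most stromal genes thus had their lower levels in the same rats as Gja1, a gene that fibroblasts and smooth muscle also express, and their part in its fall was not tested. The 10 epithelial genes, Ttr included, summed to 320292.4 to 400944.1 TPM in untreated and 270811.6 to 317128.0 TPM in injected rats. That sum is mostly Ttr (transthyretin, the main protein the epithelium secretes), at means of 340007.0 (lean) and 347006.9 TPM (obese) without injections and of 289016.7 (lean control) and 272900.5 TPM (obese + TT) with them. On the TPM scale, 7 of the 10 genes were called higher and 0 lower from lean to lean control rats in limma. From obese to obese + TT rats 6 were called higher and 1 lower (Ttr). In each comparison 41.7% of all genes were called higher. The median log2 differences of the 10 were 0.51 and 0.62, beside 0.24 and 0.25 for all genes.

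Within the injected cohort the vessel and stromal sums overlapped between the groups. The vessel genes were at 15.4 to 32.3 TPM in the lean control and 13.2 to 17.8 TPM in the obese + TT rats, and the stromal genes at 332.1 to 410.8 and 335.6 to 395.4 TPM. Taken singly, Tagln (mean 1.97 against 3.5 TPM) and Myh11 (4.56 against 7.7 TPM) were lower in the obese + TT rats without overlap. Their adjusted p was 0.51 and 0.375 in limma, 1.66% of all genes were lower without overlap, and Rgs5 and Plvap overlapped. Gja1 did not overlap between the same groups, with every obese + TT rat above every lean control rat.

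**Figure D4:**
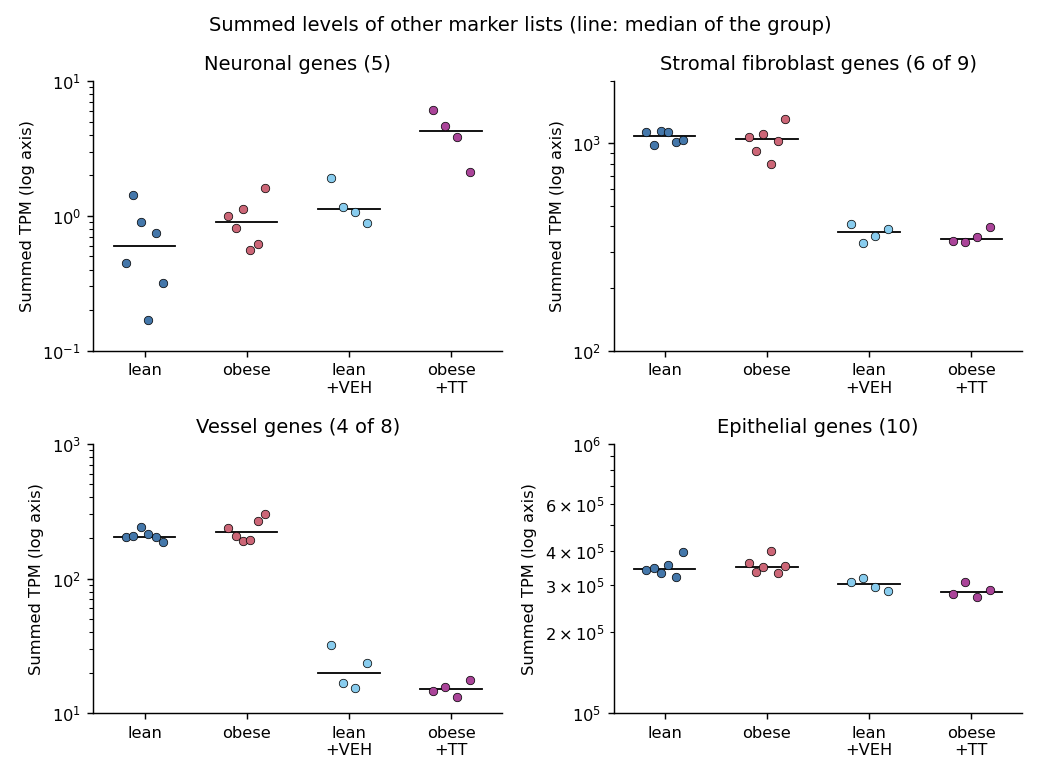
Summed TPM (log axes) of 4 lists of genes in each rat, with the median of each group as a line. The lists are the 5 neuronal genes, 6 of 9 stromal, 4 of 8 vessel and 10 epithelial genes. The stromal and vessel sums are lower in all 8 injected rats than in the 12 untreated rats, and the neuronal sum is highest in the obese + TT rats.

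The markers were also compared for covariation, which asks whether they were high and low together between rats of 1 group, as parts of 1 carried-over tissue would be. The deviations of log2(TPM + 0.1) from the group means were correlated over the 20 rats for all 15 pairs of markers, with a permutation test within groups (100000 resamples, two-sided) and Benjamini-Hochberg adjustment over the 15. None of the 15 passed. Ppp1r1b (mean 502.7 TPM) and Glul (130.2 TPM) were far above the other markers and are known from other cells as well. The pairs that hold either gene therefore cannot decide whether a little tissue was carried over, which was not tested. With steps of 0.01 TPM, the deviations of Bcl11b and Ano3 are coarse, and a weak correlation of such values is no finding.

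Among the striatal markers, the highest correlation was that of Penk with Ano3 (r = 0.50, permutation p = 0.0437, adjusted p = 0.218, rho = 0.42, permutation p = 0.0791, adjusted p = 0.297). It was 0.56 without the 2 rats farthest from the median of Penk, 0.32 in the untreated and 0.62 in the injected cohort. Penk and Bcl11b had r = 0.28 (permutation p = 0.339, adjusted p = 0.424) and rho = 0.14 (permutation p = 0.611, adjusted p = 0.833). Bcl11b and Ano3 had r = 0.32 (permutation p = 0.242, adjusted p = 0.364) and rho = 0.11 (permutation p = 0.684, adjusted p = 0.855), and r was 0.13 without the 2 farthest rats.

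The correlations of Ppp1r1b with the other striatal markers were all negative and none passed. Its r was -0.28 with Penk, -0.27 with Bcl11b and -0.40 with Ano3 (adjusted permutation p = 0.364, 0.364 and 0.234), and its rho was -0.27, -0.20 and -0.48 (adjusted permutation p = 0.5, 0.656 and 0.297). Its r with Penk was -0.37 in the untreated and -0.18 in the injected rats.

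The astrocyte markers Gja1 and Glul had r = 0.45 (permutation p = 0.0854, adjusted p = 0.234) and rho = 0.29 (permutation p = 0.257, adjusted p = 0.5). Without obese rat 12 and lean control rat 14, the rats farthest from the median of Gja1, r was 0.14, so the relation rests on those rats. The ratio of their levels also differed between the cohorts: Gja1 was 0.0381 to 0.0624 times Glul in the untreated rats and 0.0101 to 0.0246 times in the injected rats.

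Across the classes, Ano3 and Gja1 had r = 0.46 (permutation p = 0.0291, adjusted p = 0.218) and rho = 0.58 (permutation p = 0.0107, adjusted p = 0.16), with r at 0.75 in the untreated and 0.28 in the injected cohort. Penk and Glul had r = 0.45 (permutation p = 0.0368, adjusted p = 0.218) and rho = 0.44 (permutation p = 0.0618, adjusted p = 0.297). The other 6 pairs had r between -0.47 and 0.40, the highest being that of Penk with Gja1, which was 0.16 without lean control rat 14 and lean rat 1.

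The ratios of the striatal markers varied between rats. Penk was 5 to 37 times Ano3 in the lean and 7 to 31.3 times in the obese rats. It was 0 to 11.7 times Ano3 in the lean control and 4.05 to 12.8 times in the obese + TT rats. Per 1000 TPM of Ppp1r1b, Penk was at 0.279 to 1.97 TPM in lean and 0.625 to 3.44 TPM in obese rats. It was at 0 to 1.73 TPM in lean control and 1.45 to 6.09 TPM in obese + TT rats. The 0 is that of Penk in lean control rat 14. Ano3 is listed in steps of 0.01 TPM, and Ppp1r1b is known from the epithelium as well. Neither ratio is thus a measure of striatal tissue, and carry-over was not tested.

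The markers were set against the other lists in the same way, in 24 relations chosen after values had been seen. The highest correlation was that of Gja1 with the summed vessel genes, which passed the adjusted threshold in rho but not in r (r = 0.80, permutation p = 0.00234, adjusted p = 0.0562, rho = 0.83, permutation p = 0.00085, adjusted p = 0.0204), with r at 0.74 without the 2 farthest rats, 0.93 in the untreated and 0.73 in the injected cohort. With the stromal genes it had r = 0.67 (permutation p = 0.00857, adjusted p = 0.081) and rho = 0.56 (permutation p = 0.0301, adjusted p = 0.189), and r was 0.41 without the 2 farthest rats. With the 5 neuronal genes it had r = 0.25 (permutation p = 0.233, adjusted p = 0.429) and rho = 0.27 (permutation p = 0.239, adjusted p = 0.411).

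With the sum of the 5 neuronal genes, r was 0.52 for Penk, 0.47 for Bcl11b, 0.37 for Ano3, 0.57 for Glul and -0.28 for Ppp1r1b (adjusted permutation p = 0.117, 0.121, 0.21, 0.081 and 0.429). The rho values were 0.41, 0.47, 0.35, 0.61 and -0.30 (adjusted permutation p = 0.299, 0.205, 0.34, 0.147 and 0.411). None passed, and the 3 low striatal markers were on the positive side where Ppp1r1b was on the negative side. For Glul, r was 0.70 in the untreated and 0.03 in the injected cohort. Among 30 relations of the markers with single neuronal genes, 1 passed in r, that of Glul with Egr4 (r = 0.53, adjusted permutation p = 0.0423, rho = 0.68, adjusted permutation p = 0.0315), and Egr4 is listed at 0 in 11 of the 20 libraries.

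**Figure D5:**
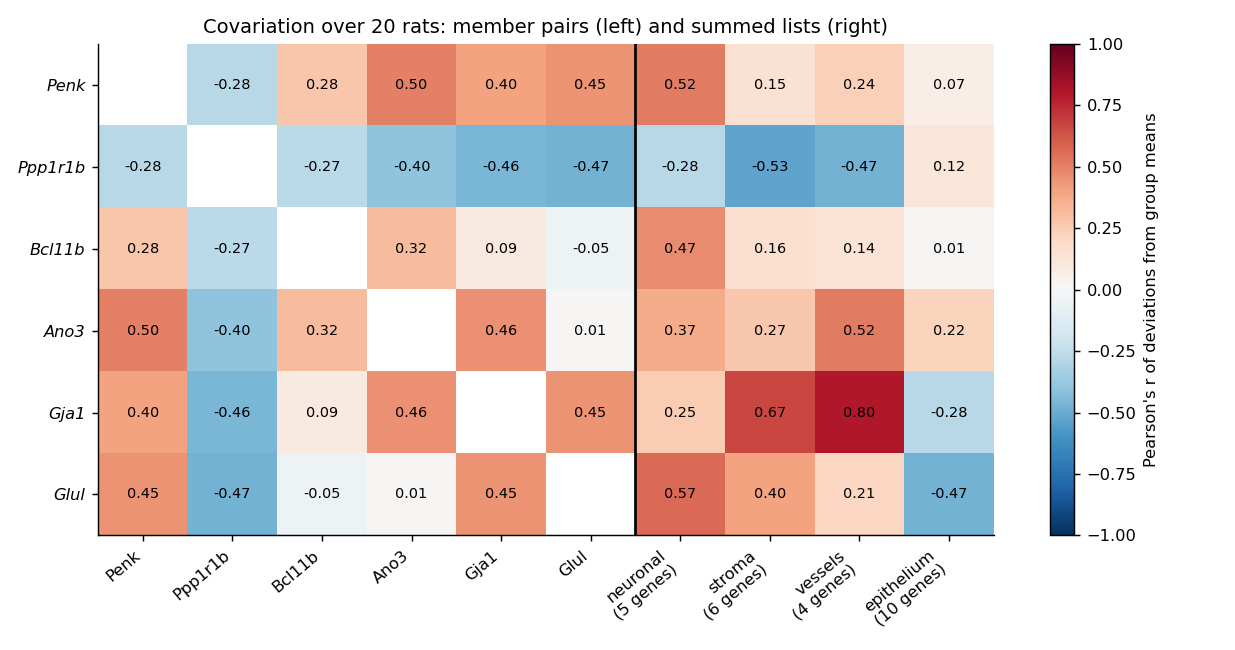
Pearson's r, over 20 rats, of the deviations of log2(TPM + 0.1) from the group means, for pairs of marker genes (left of the line) and for each marker with 4 summed lists (right of it). Red is positive and blue negative. Values between markers lie from -0.47 to 0.50, all 5 of Ppp1r1b are negative, and the highest value is the 0.80 of Gja1 with the vessel genes.

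Finally, the genes most like each marker over the 20 libraries were named from the identifiers with a symbol and a mean of at least 0.5 TPM (2591 or 2592 genes), by Pearson's r of log2(TPM + 0.1) with the group differences left in. This is a description of likeness, and the libraries share their groups and the dominant Ttr. For Penk the nearest were Alox15 (r = 0.65) and Fscn1 (0.64), then Ppp3ca (0.62), Dap (0.60) and Cdc25b (0.60), with 0.37 to 0.70 after the group means were removed. For Ppp1r1b they were Hes6 (0.80), Pla2g2f (0.79), Pkdcc (0.78), Zfand2a (0.78) and Mrps18a (0.77), with 0.25 to 0.62 after removal.

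For Bcl11b the nearest were LOC100134871 (r = 0.82), Cdc25b (0.81), Hpca (0.80), LOC689574 (0.77) and Dap (0.77), and after removing the group means those values fell to between 0.17 and 0.46. For Ano3 they were Igsf1 (0.86), Sorcs1 (0.85), Reck (0.85), Cntn3 (0.84) and LOC689574 (0.83), with 0 to 0.39 after removal. The likeness of these 2 genes was thus mostly one of group levels.

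For Gja1 the nearest were Rps27a (r = 0.94), Ltbp4 (0.92), LOC100362366 (0.92), Rasip1 (0.92) and Rgcc (0.92). After the group means were removed these were 0.54, 0.82, 0.41, 0.61 and 0.71, with the highest for Ltbp4, which binds TGF-beta in the matrix. For Glul they were Ppp3ca (0.75), Prdx6 (0.75), Prdx2 (0.75), Tsc22d1 (0.74) and Cct2 (0.72), with 0.63 to 0.78 after removal. The antioxidant enzymes Prdx6 and Prdx2 were at means of 220.4 and 304.0 TPM. None of the 4 markers with a mean of at least 0.5 TPM was among the 5 nearest genes of another marker.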

How the data were processed

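RNA of the choroid plexus of 20 rats was sequenced as 1 library each (paired ends, 150 bp reads were stated). The authors deposited TPM and FPKM for each gene and rat. The submitters' processing notes name STAR 2.7.9a, RSEM 1.3.3 and DESeq2, with the build Rnor_6.0; which program made the TPM and FPKM is not given in the sources used here. Both units have depth divided out, so no interval for counting error can be given. Groups came from the sample titles.

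log2(TPM + 0.1) was compared with limma 3.58.1 (R 4.3.3, eBayes with a trend) over genes whose mean reached 0.1 TPM, on the libraries of 1 comparison, with Benjamini-Hochberg adjustment over all genes and a threshold of 0.05. Each marker was also compared by an exact two-sided permutation test over rats (24 tests), not reported for the 4 markers of the study's injected-cohort list in that comparison. The p-values of these comparisons set a difference between groups against the spread between rats. Exact permutation p-values are not adjusted for the number of tests. Alternatives changed the pseudocount, the filter, the eBayes options, the scaling, the unit (FPKM), the libraries in the fit, or left out 1 rat. The fit was tested on simulated data.

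The 6 markers, the lists and the tests were chosen with earlier results of these data known. The text names the 6 markers, members of the lists that have an identifier, and the 5 genes most like each marker. Symbols come from the study's gene tables. No duplicate library was found (at most 0.463% identical values above 1 TPM over 42 pairs within groups). Python 3.11.15, pandas 2.3.3, scipy 1.17.1 and matplotlib 3.10.9 were used.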

Additional observations from a re-analysis of the deposited data

Results flagged for a closer look

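In the lean control group, rat 13 had 0.10 TPM of Ano3 where the other 3 rats were all listed at 0.06, so the gap to the nearest rat was the whole range of the group. It stood apart by Dixon's test at the 95% level. Of 24 groups checked (6 markers in 4 groups) 1 was found, where chance gives about 1.2. The values are listed in steps of 0.01 TPM and their depth is unknown.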

How the results depend on the processing

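Most results kept their direction and their side of the threshold. The number of genes called between obese and lean rats was 0, and 1 with median-ratio scaling, 1 with FPKM, 3 when all 20 libraries shared a fit and 0 to 1 when 1 rat was left out. Between obese + TT and lean control rats it was 0, rose to 6 with all 20 libraries fitted together, and was 0 to 25 with 1 rat left out (25 without lean control rat 13). For the difference of both contrasts it was 0, then 1 with a mean of at least 1 TPM, 1 with robust eBayes, 2 with median-ratio scaling, 10 when scaled without Ttr, 2 with FPKM and 0 to 14 with 1 rat left out (14 without lean control rat 13). Between cohorts it was 8925 (lean) and 8941 (obese), then 8206 to 8822 and 8244 to 8908 with 1 rat left out, and 7883 to 9129 and 7809 to 9130 in the other settings. Of the markers, 0 were called in any setting within a cohort. Between obese + TT and obese rats 3 were called, 1 with a mean of at least 1 TPM and 1 in the fit of all 20 libraries, where Bcl11b and Ano3 fell under the filter, and 1 to 4 with 1 rat left out (1 without obese + TT rat 17 and 4 without obese rat 12, where Glul passed at 0.18, adjusted p = 0.0383 in limma). Glul reversed from 0.14 to -0.15 (median-ratio), -0.01 (without Ttr) and -0.14 (FPKM) between obese + TT and obese rats, and its -0.04 between obese and lean rats ranged from -0.08 to 0.0 with 1 rat left out (0.0 without obese rat 10). It was called between lean control and lean rats under the same 3 scalings (-0.38, -0.18 and -0.33), as was Ppp1r1b between obese + TT and obese rats (-0.46, -0.32 and -0.44). The cause was not tested beyond the scaling itself. Of the correlations of marker pairs, 0 of 15 passed, and r of Ppp1r1b with Glul went from -0.47 to 0.66 in the injected cohort. The rats' numbers are not shared between groups, so there was nothing to pair. Read numbers are unknown, so no precision from depth can be given.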
